A study of Mus musculus with 7 samples.

Results

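Genes of voltage-gated and related ion channels were examined in mammary glands of PRA transgenic and wild-type mice. The members were chosen by name alone: every probe whose gene name in the scanner files starts with Kcn, Scn followed by a digit, or Cacn, with 1 gene left out. This gave 282 probes of 137 genes out of 56605 probes of 37074 named genes on the array. The names reach wider than voltage gating, since they take in inward rectifier and tandem-pore potassium channels, which do not have the voltage sensor of the Kv channels, and the noncoding RNA Kcnq1ot1, which overlaps Kcnq1. Several Cacng genes encode subunits of glutamate receptors rather than of calcium channels.

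All mice were nulliparous FVB females of 20 to 25 weeks killed at diestrus, and 1 abdominal gland per mouse, freed of lymph nodes, was used. The 3 wild-type mice were littermates of the 4 PRA transgenic mice, which are bigenic: GAL-4 under the murine cytomegalovirus promoter (CMV-GAL-4) drives an additional gene of the A form of the progesterone receptor (UAS-PR-A), and this promoter is not limited to the mammary epithelium. Gland RNA was labelled with Cy5 and a common reference, Universal Mouse Reference RNA pooled from cell lines, with Cy3 on every array, with no dye swap. Values are log2 ratios of gland over reference, and a log2 fold change is the PRA transgenic mean minus the wild-type mean.

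Ion channels are pores in the cell membrane that let potassium, sodium or calcium ions pass. Potassium channels hold the resting voltage of a cell and end its electrical activity, sodium channels start action potentials, and calcium channels turn a change in voltage into a calcium signal for contraction or secretion. Pore-forming subunits work with smaller auxiliary subunits that set where and how fast the pore opens. In the mammary gland these genes are known from ducts and alveoli, from blood vessels and their pericytes, from nerves, from immune cells and from muscle next to the gland. In RNA of a whole gland, fewer cells of a type and less RNA per cell cannot be told apart.

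The arrays limit what can be seen of these genes. Of the 282 channel probes 128 (45.4%) were kept for testing by 1 rule, a Cy5 signal above background on every array of either genotype or both, compared with 60.6% of all probes. They stand for 88 of the 137 genes. Above background stands here and below for the flag of the scanner software for a signal well above background. Of the 154 probes not kept, 97 were above background on no array. Of the kept channel probes 91 passed in both genotypes, 35 through the wild-type arrays only and 2 through the PRA transgenic arrays only. The 35 make up 27.3% of the kept channel probes, against 11.7% of all kept probes, and the dimmest Cy5 signal above background was at log2 3.13 to 3.31 on wild-type and 3.60 to 3.99 on PRA transgenic arrays. On the single slide used, wild-type samples occupied row 1 and PRA transgenic samples row 2, so that the effects of row and genotype cannot be told apart.

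Over the 7 arrays, 34 channel genes were above background in both channels on every array. Of these, 11 were above the reference on all 7 arrays (32.4%, against 30.9% of all genes measured as well), 10 were below it on all 7 (29.4% against 38.9%) and 13 were on both sides. The 3 highest median log2 ratios were 3.73 for Kcnj14 (range 3.26 to 4.16) and 2.06 for Kcnj2 (1.76 to 2.77), both inward rectifier pores, and 1.52 for the tandem-pore channel gene Kcnk6 (1.13 to 2.39). The 3 lowest were -2.57 for Kcnab1 (-3.25 to -2.03), a cytoplasmic subunit of Kv channels, -2.35 for the inward rectifier Kcnj4 (-2.78 to -2.24) and -2.11 for the calcium channel subunit Cacnb3 (-2.64 to -1.80). Both sets held their side of the reference in both genotypes.

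No channel gene differed between the genotypes at an adjusted p under 0.05 in limma (lowest adjusted p = 0.295, with 12 of 88 at an unadjusted P under 0.05 against 7.95% of all genes), and the same 0 was given by the methods' t-test. In this comparison 1 of 22503 genes (0.00444%) passed. At the looser threshold of an unadjusted P under 0.05 and at least 1.5-fold, 8 of the 88 channel genes (9.09%) were called, against 4.06% of all genes. Of the 8, 7 were lower (2.55% of all genes) and 1 was higher (1.52%) in PRA transgenic glands. Of the 7, 5 (Cacna1d, Kcnc2, Kcnc4, Kcne4 and Kcnt2) were kept through the wild-type arrays only, where they were high. The counts of 7, of 8 and of 12 at an unadjusted P under 0.05 include them and so carry no weight. With Cy5 above background on all 7 arrays, a filter chosen after seeing the data, 3 of 64 channel genes were called (4.69%, against 3.03% of all genes), namely Kcnk3 higher and Kcne1l and Kcnj8 lower. After normexp background correction with an offset of 50 and loess, none of the 8 was called in limma. The offset draws the ratios of dim signals toward 0. Here and below, this setting therefore cannot tell such shrinkage from a lost change. The calls at the looser threshold are not corrected for the number of genes tested and are given as the values that stand out, not as established changes.

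**Figure D1:**
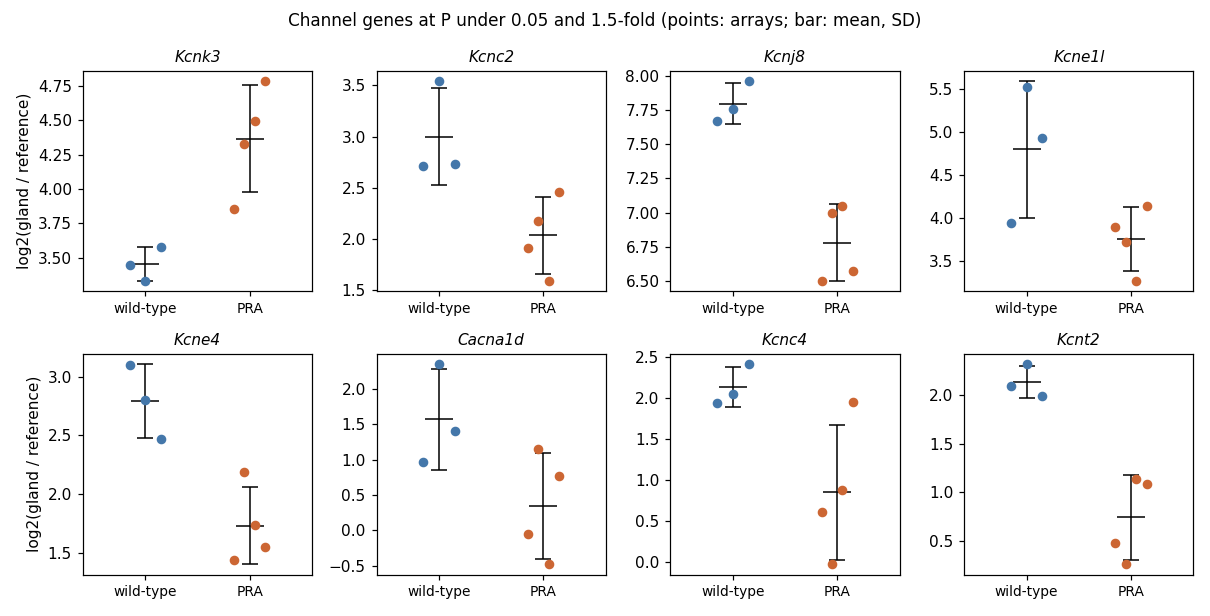
The 8 channel genes at P under 0.05 and 1.5-fold. Each panel gives the log2 ratio of gland over reference (vertical axis, own scale per gene) on the 3 wild-type and 4 PRA transgenic arrays as points, with the mean and SD as bars; the genotypes did not overlap for Kcnk3, Kcnc2, Kcnj8, Kcne4 and Kcnt2.

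The largest set of members was the Kv family, the pores that open when the membrane is depolarised. Of its 40 genes 25 were kept, with a median log2 fold change of 0.02 against 0.01 over all genes, and 2 were called, both lower. They are the Kv3 genes Kcnc2 and Kcnc4, whose channels open and close fast. Kcnc2 had log2 ratios of 2.72, 3.55 and 2.73 on the wild-type arrays and of 1.91, 2.18, 1.59 and 2.46 on the PRA transgenic arrays. Every PRA transgenic value was below every wild-type value, with a difference of -0.96 on the log2 scale (limma, standard error 0.28, adjusted p = 0.422) and of -0.16 with normexp and loess. Kcnc4 had log2 ratios of 1.94, 2.05 and 2.42 in wild-type and of 0.62, -0.03, 0.88 and 1.95 in PRA transgenic glands. PRA transgenic replicate 4 reached the wild-type range (log2 fold change -1.28, standard error 0.43, adjusted p = 0.463, and -0.21 with normexp and loess).

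At the other end of the Kv list, Kcnd3, a pore of the A-type current, had the largest positive log2 fold change, 0.76 (standard error 0.33, adjusted p = 0.565), with ratios of 0.57 to 1.00 in wild-type and 1.06 to 2.37 in PRA transgenic glands that did not overlap. In Cy5 alone the Kcnd3 change was -0.045, and its reference was above background on 2 of the 7 arrays. Kcna3, the Kv1.3 channel of lymphocytes, was at -0.80, -1.03 and -1.08 in wild-type and at -0.69, -0.29, -0.15 and -0.56 in PRA transgenic glands, again without overlap. Its log2 fold change of 0.55 (adjusted p = 0.432) stayed under 1.5-fold, and its Cy5 signal was above background on 6 of the 7 arrays. The rest of the kept Kv genes lay between -1.01 and 0.64. Over all roles, 10 of the 88 channel genes (11.4%) had genotypes that did not overlap, against 9.11% of all genes, 5 higher (4.59%) and 5 lower (4.52%). Of the lower ones, Kcnc2, Kcne4 and Kcnt2 were kept through the wild-type arrays only, where they were high, so this count carries no weight.

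The Kv auxiliary subunits, which change the gating of the pores, had the widest range of the role lists. Of 13 genes 10 were kept, and 2 were called, both lower: Kcne4, an inhibitory subunit, and Kcne1l. Kcne4 had log2 ratios of 3.10, 2.80 and 2.47 in wild-type and of 1.44, 2.19, 1.74 and 1.55 in PRA transgenic glands, which did not overlap (log2 fold change -1.06, standard error 0.23, adjusted p = 0.34, and -0.01 with normexp and loess). Kcne1l was at 3.95, 5.53 and 4.93 in wild-type and at 3.90, 3.73, 3.27 and 4.14 in PRA transgenic glands. Wild-type replicate 1 lay within the PRA transgenic range (log2 fold change -1.05, standard error 0.38, adjusted p = 0.493, and -0.33 with normexp and loess).

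Kcne2 and Kcne3, subunits known from secretory and absorptive epithelia, had the largest and the smallest fold change of this list and neither was called. Kcne2 was at 5.09, -0.55 and 1.03 in wild-type and at 3.11, 4.46, 3.87 and 4.97 in PRA transgenic glands (log2 fold change 2.25, standard error 1.24, adjusted p = 0.647). The wild-type arrays alone spanned 5.64, so 1 mouse of 3 was above all PRA transgenic mice and the others below them. With wild-type replicate 1 left out the change was 3.86 and passed both limits. The Kcne2 Cy5 signal was above background on 5 of the 7 arrays and its reference on 1. The fitted change therefore rests in part on values not above background, and its passing carries no weight. Kcne3 was at -1.36 on the same scale, and its standard error was 0.86.

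Of the 14 genes of calcium- and sodium-activated potassium channels 9 were kept, and 1 was called. Kcnt2, a sodium-activated channel, was at 2.10, 2.32 and 1.99 in wild-type and at 0.47, 0.25, 1.14 and 1.09 in PRA transgenic glands. The genotypes did not overlap (log2 fold change -1.40, standard error 0.25, adjusted p = 0.295), but the value was -0.47 in Cy5 alone and -0.18 with normexp and loess. Its Cy5 signal was above background on all 3 wild-type arrays and on 1 of 4 PRA transgenic arrays, and its reference on none, so the size of the change is not well measured. The largest positive value of the list was 0.62 (standard error 0.50) for Kcnmb1, the smooth muscle subunit of the large-conductance channel.

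Of the 15 inward rectifier genes 7 were kept, and 1 was called. Kcnj8 encodes Kir6.1, the pore of the ATP-sensitive channel of vascular smooth muscle and pericytes. It was at 7.67, 7.76 and 7.96 in wild-type and at 6.50, 7.0, 7.05 and 6.57 in PRA transgenic glands, with narrow groups that did not overlap (log2 fold change -1.02, standard error 0.18, adjusted p = 0.295). The log2 fold change was between -1.11 and -0.92 with each array left out, but -0.52 with normexp and loess and -0.45 in Cy5 alone, both without the call, and the Kcnj8 reference was above background on no array. Abcc9, the sulphonylurea receptor that assembles with Kir6.1, changed by -0.47 on the log2 scale (standard error 0.37, adjusted p = 0.761). The mean of 4 pericyte markers was 1.80 to 1.87 in wild-type and 1.81 to 2.15 in PRA transgenic glands, a difference of 0.08 (two-sided exact permutation test, p = 0.514), and in Cy5 alone the difference was -0.18 (exact permutation p = 0.371). Of the 4 markers Pdgfrb was at -0.25 on the ratio and the others were positive. Of the other kept rectifiers Kcnj13 was highest at 0.62 (standard error 0.38).

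Of the 14 tandem-pore genes, whose channels carry the leak current at rest, 9 were kept and 1 was called. Kcnk3, the acid-sensitive TASK-1 channel, was the only channel gene called higher. It was at 3.45, 3.33 and 3.58 in wild-type and at 3.86, 4.33, 4.49 and 4.78 in PRA transgenic glands, without overlap (log2 fold change 0.91, standard error 0.22, adjusted p = 0.382). With each array left out the value ran from 0.77 to 1.08, and with normexp and loess it was 0.53 without the call. The lowest gene of the list was Kcnk13 at -0.58 (standard error 0.26, adjusted p = 0.576).

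The Kcnj8 and Kcnk3 calls each rest on 1 probe of 60 bases, and the first 30 bases of each are shown so that its place can be checked. The Kcnj8 probe lies at chr6:142513920-142513979 on the minus strand and the Kcnk3 probe at chr5:30927090-30927149 on the plus strand, in the mm9 coordinates of the scanner files. Whether a probe lies in an exon or an untranslated region was not analysed here.
Kcnj8: ggctggagcacagtattcctatcctaatgc
Kcnk3: ctgggaaatccttaggtggaaggaatctgg

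Of the 10 sodium channel pores 7 were kept and none was called in limma, with 1 at an unadjusted P under 0.05 and 0 called by the methods' t-test. The median over the list was 0.44 on the log2 fold change scale, and 5 of 7 genes were positive. Scn10a, the Nav1.8 channel of sensory neurons, had the largest value, 0.95 (standard error 0.46, adjusted p = 0.601), with PRA transgenic replicate 4 at 1.21 and the other PRA transgenic arrays at 2.61, 2.61 and 2.86. The median depended on the scale: in Cy5 alone it was -0.08, where the median over all kept probes was -0.20. Scn2a1 (Scn2a in RefSeq) was lowest at -0.57 (standard error 0.39). All 4 sodium beta subunits were kept, none was called, and their median was -0.45. Scn4b was lowest at -0.90 (standard error 0.66) and is taken up with the muscle markers, and Scn2b was highest at 0.00 (standard error 0.61).

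Of the 9 calcium channel pores 8 were kept and 1 was called. Cacna1d, the L-type Cav1.3 pore, was at 0.96, 2.36 and 1.40 in wild-type and at -0.05, 1.15, -0.48 and 0.77 in PRA transgenic glands, which overlapped (log2 fold change -1.23, standard error 0.48, adjusted p = 0.518). Its Cy5 signal was above background in all 3 wild-type glands and in none of the PRA transgenic glands. As a floor, PRA transgenic values under the smallest value of any probe above background on the same array were raised to it. With this floor, after loess and between-array scaling, the mean Cy5 level was 1.09-fold lower in PRA transgenic glands. No allowance was made for the spread between mice. Most of the fitted change therefore rests on values not above background. The other kept Cacna1d probe gave no such floored value, and with normexp and loess the value of the brightest was -0.18. Cacna1c, another L-type pore, and the rest of the list lay between -0.38 and 0.41, with Cacna1e highest at 0.41 (standard error 0.22).

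Auxiliary calcium channel genes showed no call in limma, at 0 of 8 kept and none at an unadjusted P under 0.05. The alpha2delta genes were at -0.02 (Cacna2d1) and 0.15 (Cacna2d2), and the beta genes at -0.24 (Cacnb1) and -0.05 (Cacnb3). Of the gamma genes Cacng4 was at -0.49 (standard error 0.25) with genotypes that did not overlap, and Cacng6 at 0.59 (standard error 0.43). In Cy5 alone they were at -0.26 and -0.45, where the median of all kept probes was -0.20. The Cacng4 reference was above background on no array, and with normexp and loess its value was -0.01. Cacng7, whose protein is a glutamate receptor subunit, is listed by the study as upregulated at 1.5-fold or more and P under 0.05. On its brightest probe it was at -0.77, -0.54 and -0.87 in wild-type and at -0.53, -0.86, -0.57 and -0.41 in PRA transgenic glands. These values overlapped (log2 fold change 0.14, standard error 0.15, adjusted p = 0.84). Its second kept probe, given below, was higher in PRA transgenic glands by 0.68 and passed the looser threshold.

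**Figure D2:**
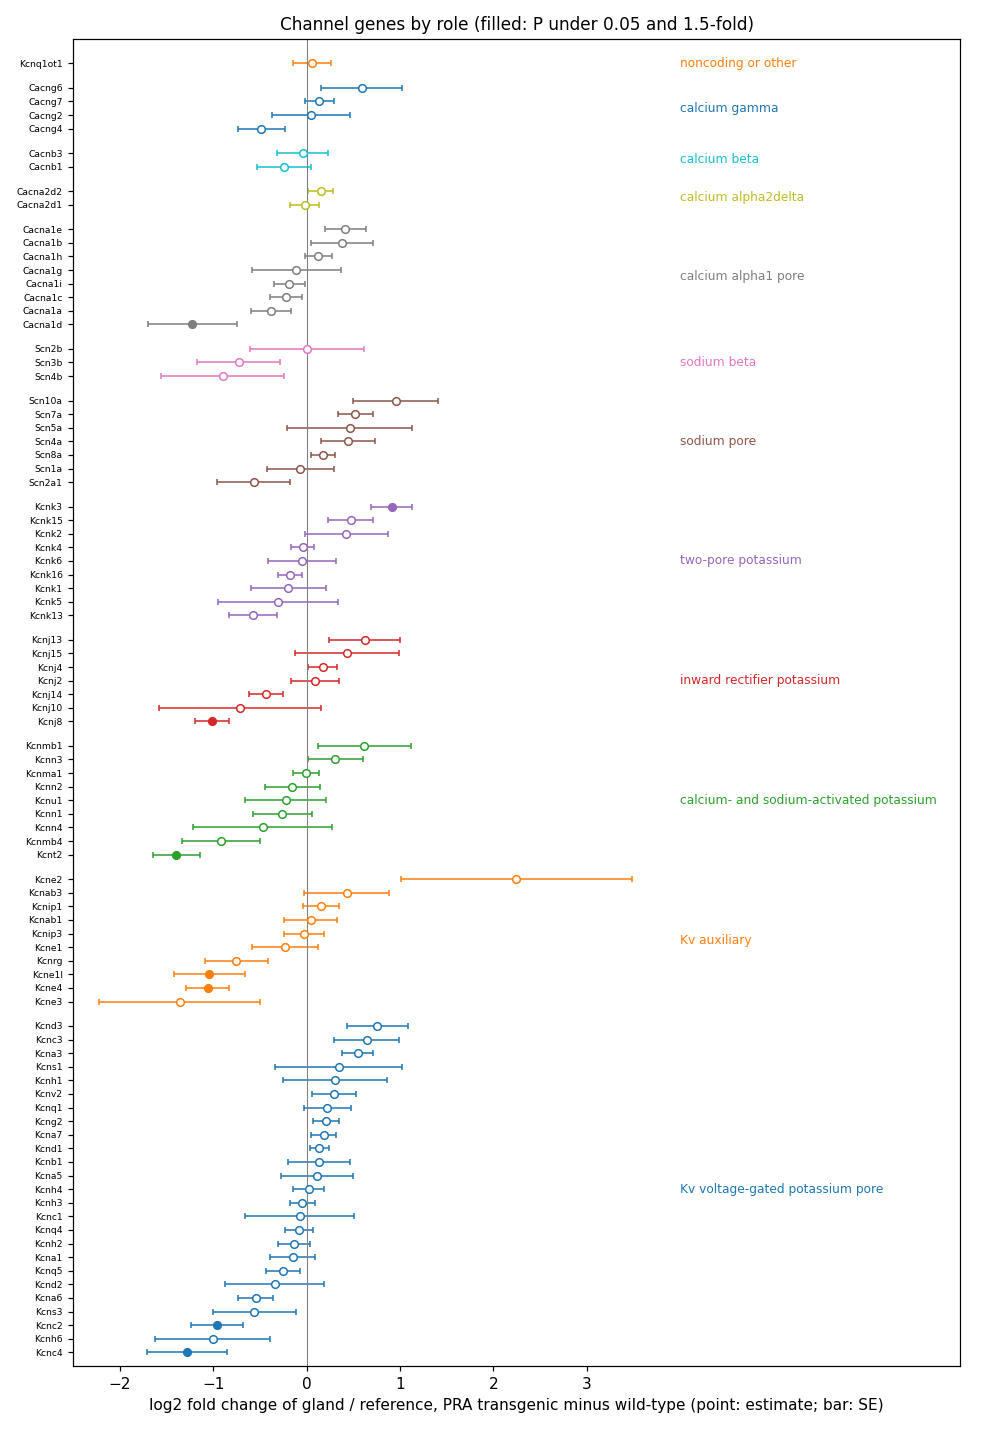
Log2 fold change of gland over reference, PRA transgenic minus wild-type, for the kept channel genes grouped by role, with 1 gene not drawn (points: limma estimate; bars: standard error; filled points: the 8 genes at P under 0.05 and 1.5-fold). The medians of the role lists run from -0.45 for the sodium beta subunits to 0.44 for the sodium pores, and Kcne2 has the widest bar.

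The reference RNA was the same on every array, so a change in the Cy3 channel between genotypes is not a change in the gland. Over all kept probes the median change was -0.20 in Cy5 and -0.22 in Cy3, and the changes printed here are raw, without these medians taken off. Relative to the medians, the Cy3 reference had moved further than the Cy5 gland signal in 6 of the 8 called channel genes (75%), compared with 43.2% of the 914 called genes of the whole array. For Kcnt2 the raw change was -0.47 in Cy5 and 0.92 in Cy3. For Kcne4 it was -0.38 in Cy5 and 0.68 in Cy3, and for Kcnj8 it was -0.45 in Cy5 and 0.57 in Cy3. Relative to the medians the gland moved further in the others, Cacna1d (-1.01 in Cy5, 0.21 in Cy3) and Kcnk3 (0.73 in Cy5, -0.18 in Cy3). On the raw scale it also moved further in Kcnc2 and Kcne1l, so the count depends on the scale. There Cy5 changed by -0.66 for each, the larger part of ratio changes of -0.96 and -1.05.

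All 7 genes called lower had a Cy3 reference that was above background on no array, so that their ratios were taken against a value at the floor of the scanner software. Among the 27 channel genes with such a reference 7 were called (25.9%, against 17% of all genes with such a reference), their median log2 fold change was -0.55, and 19 were negative. Of the 7, 5 were kept through the wild-type arrays only, where they were high. This count, the median and the 19 negative values therefore carry no weight. Among the 37 with a reference above background on all 7 arrays 0 were called (1.7% of all such genes) in limma, 1 had an unadjusted P under 0.05, and the median was -0.03. Of the 24 in between, 1 was called, which was Kcnk3, with a reference above background on 6 arrays.

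**Figure D3:**
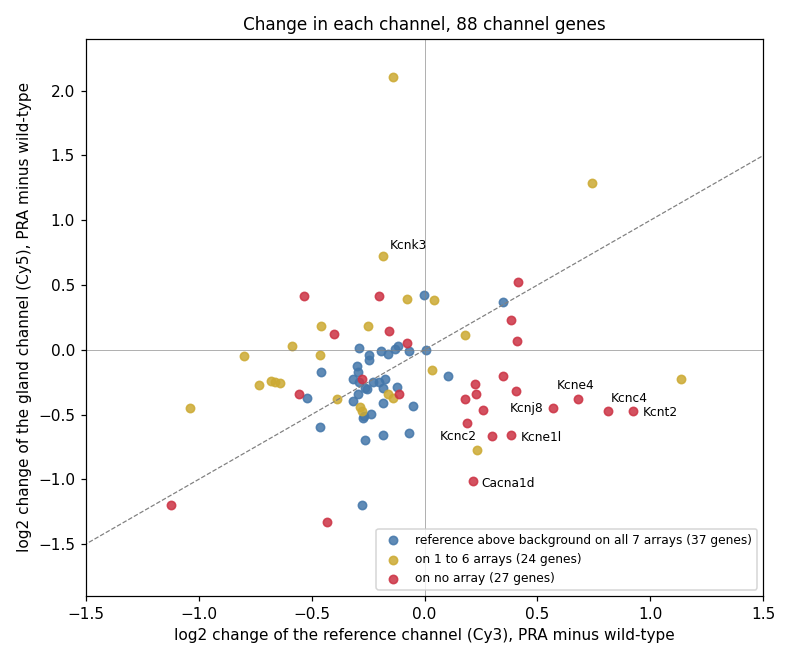
Change of the Cy5 gland channel (vertical axis, log2) against change of the Cy3 reference channel (horizontal axis, log2), PRA transgenic minus wild-type, for the 88 kept channel genes, coloured by on how many arrays the reference was above background. Genes on the dashed line have a ratio that did not change; the 7 genes called lower lie to the right, with a Cy3 change of 0.21 to 0.92, and Kcnk3 lies above the line with a Cy3 change of -0.18.

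In Cy5 alone 5 of the 88 channel genes (5.68%) passed the looser threshold, against 6.35% of all genes, and none passed at an adjusted p in limma. They were Cacna1d, Kcna3, Kcnh2, Kcnmb4 and Scn4b, of which only Cacna1d was also called on the ratio. Kcna3 was the one higher: its log2 Cy5 signal was 3.52, 3.70 and 3.44 in wild-type and 4.62, 4.42, 5.02 and 5.30 in PRA transgenic glands. These values did not overlap (Cy5 change 1.29, adjusted p = 0.201), and the reference signal was also 0.74 higher. Kcna3 Cy5 was above background on 6 of the 7 arrays. Its wild-type values lie near the dimmest Cy5 signals above background on wild-type arrays, at 3.13 to 3.31. The size of the Kcna3 change is therefore not well measured. Kcnj8 kept its separation in Cy5, at 10.17, 10.26 and 10.22 in wild-type and 9.66, 9.87, 9.86 and 9.68 in PRA transgenic glands, a change of -0.45 or -0.25 relative to the median of all probes. For Kcnk3 the Cy5 signals of 8.72, 9.28 and 8.96 in wild-type and 9.66, 9.97, 10.45 and 8.78 in PRA transgenic glands overlapped through PRA transgenic replicate 4. On that array the Cy3 signal was 4.00, against 5.27 to 5.95 on the others. For Kcnmb4, a subunit of the large-conductance channel, no PRA transgenic array was above background. With the floor described for Cacna1d, and no allowance for spread, the mean level was 1.41-fold lower in PRA transgenic glands (log2 fold change of the ratio -0.92, adjusted p = 0.581 in limma).

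Several genes were read by more than 1 probe, and the probes did not always give the same value. Of the 128 kept channel probes 15 (11.7%) passed the looser threshold, against 4.53% of all kept probes, with 3 higher and 12 lower. Of the 15, 7 were not the brightest probe of their gene. Kept channel probes came through the wild-type arrays only in 27.3% of cases, against 11.7% of all kept probes. The filter thus favours lower values, and the count of 15 carries no weight. Of the 26 genes with more than 1 kept probe, 10 had probes with opposite signs. For Kcnma1, the pore of the large-conductance channel, the brightest probe was at -0.09, -0.01 and 0.00 in wild-type and at -0.31, -0.09, 0.10 and 0.13 in PRA transgenic glands (log2 fold change -0.01, standard error 0.14). This probe was above background in both channels on all 7 arrays. The other 3 kept probes had log2 fold changes of -0.84, -0.97 and -1.09 and all passed the looser threshold. How much of each change came from the reference is not given here, so they are not taken as a change in the gland. The brightest probe was made to a cDNA clone and lies upstream of the other 3 on the gene's strand.

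For Cacna1a, the P/Q-type calcium pore, the probes at the same end of the gene gave -0.38 (brightest) and -0.51, and another, placed on another stretch, gave 0.86 (standard error 0.16, adjusted p = 0.33). For that probe Cy5 changed by -0.06 and the reference by -0.91. For Cacng7 the second probe was at 0.56, 0.58 and 0.63 in wild-type and at 1.66, 1.17, 1.39 and 0.87 in PRA transgenic glands, which did not overlap (log2 fold change 0.68, standard error 0.19, adjusted p = 0.412). Its Cy5 signal changed by -0.05, and that of the reference by -0.74, with the reference above background on 1 array. For Scn7a, a sodium sensor related to the voltage-gated pores, the brightest probe gave 0.52 (standard error 0.19) and a probe to a cDNA clone -1.14 (standard error 0.52). The first 30 bases of the probes that differ are shown with the log2 fold change of each given above, and in mm9 the Kcnma1 probes lie at chr14:24344084-24344143 (brightest), chr14:24111708-24111767, chr14:24126279-24126338 and chr14:24255239-24261264, all on the minus strand. The last spans 6026 bases for 60 bases of probe, as does the Cacna1a probe at 0.86 at chr8:86939802-86985407 with 45606 bases and the second Cacng7 probe at chr7:3338624-3339037 with 414, so that each of these probes matches separate stretches of the genome.
Kcnma1 brightest probe: gccagcatctccttatccctgtcccccaat
Kcnma1 probe at -0.84: agagcgtggtttgtttctttgtctttcaca
Kcnma1 probe at -0.97: tgggtgggcagtcaatgtatacatgtaaat
Kcnma1 probe at -1.09: gaaggtactttaggatttttcatcgcaagt
Cacna1a brightest probe: cttgtttgaaaaacgtgggcttgggactgt
Cacna1a probe at 0.86: aacgtggtgagaaaatacgccaaaaagatc
Cacng7 brightest probe: ggggggcctggctctgttatttaccgtgta
Cacng7 second probe: tattctgaagacagtgcgcacggctacacc

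**Figure D4:**
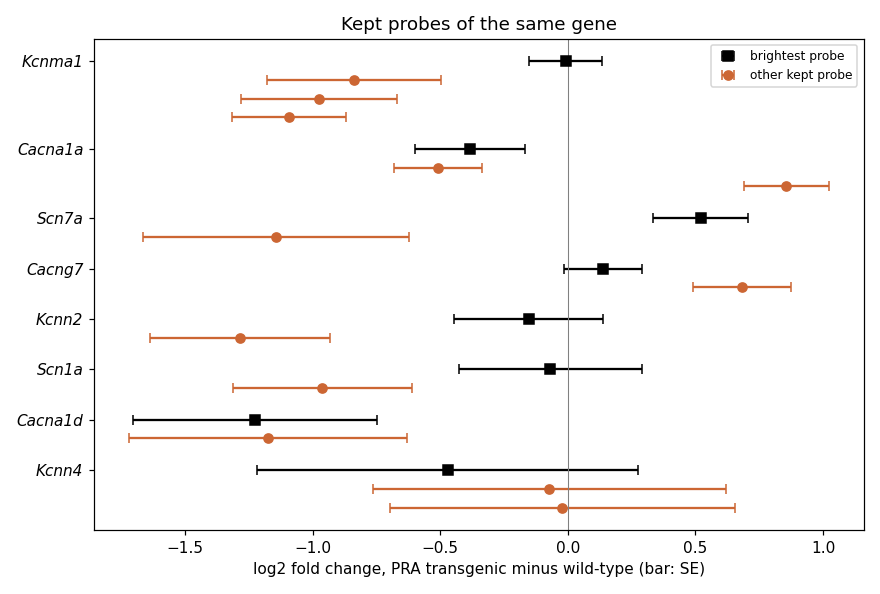
Log2 fold change, PRA transgenic minus wild-type (horizontal axis; bars: standard error), of each kept probe of 8 channel genes (black squares: brightest probe; orange points: other kept probes). The probes of Kcnma1, Cacna1a and Scn7a lie apart, whereas both Cacna1d probes (-1.23 and -1.17) lie together and the 3 Kcnn4 probes range from -0.47 to -0.02.

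The tissue groups of channel genes were drawn up from what is known of them. Of 10 channels known from smooth muscle and pericytes 9 were kept, with Kcnj8 lower and Kcnk3 higher and a median of -0.01. Of 18 channels known from nerve 11 were kept, of 14 known from epithelia 12, and of 5 known from leukocytes 4, and none of these passed the looser threshold in limma, with 0, 0 and 1 at an unadjusted P under 0.05. The 1 was Kcna3. T cell markers were lower on the PRA transgenic arrays in Cy5 by 1.09, where the median change of all kept probes was -0.20. A two-sided exact permutation test of the 7 markers gave p = 0.0286, the least that 7 arrays can give. This p is not corrected for the number of marker lists tested. As a ratio they were lower by 0.86 (exact permutation p = 0.0857), with wild-type replicate 1 at 2.05 and the other arrays between -0.25 and 0.41. With 1 array left out the ratio difference ran from -1.28 to -0.25. The part of these markers in the channel values was not tested.

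Of 10 channels known from skeletal muscle 8 were kept, and 1, Kcnc4, was called. Scn4a, the muscle sodium pore, was at 0.44 (standard error 0.29), Kcnj2 at 0.09, Kcna7 at 0.18 and Kcnq5 at -0.26, none past the threshold. The mean of 16 skeletal muscle markers was high on 3 arrays, at 2.00 on wild-type replicate 1, 3.17 on wild-type replicate 3 and 2.80 on PRA transgenic replicate 4, and between -0.20 and -0.03 on the other 4. Scn4b was at 2.75 and 4.58 on the first pair and 3.01 on the last of these arrays, and at 1.59 to 2.46 on the others. Cacng1, the gamma subunit of the muscle calcium channel, was at -1.13, 1.64 and -1.82 on the same arrays and at -3.31 to -2.39 on the others, and was not kept because its Cy5 signal was above background on 2 wild-type arrays and none of the PRA transgenic arrays. The Cacnb1 values of -1.19, -0.72 and -0.70 on those arrays were also above the -1.83 to -1.43 of the rest. Not every gene of the list followed the markers in this way. Over the wild-type arrays, where the marker mean ran from -0.20 to 3.17, Kcna7 spanned only 0.15 and Scn4a 0.39. With the muscle marker mean as a covariate the log2 fold change of Scn4b moved from -0.90 to -0.32, that of Kcnc4 from -1.28 to -0.96, and that of Kcnj8 from -1.02 to -1.05.

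**Figure D5:**
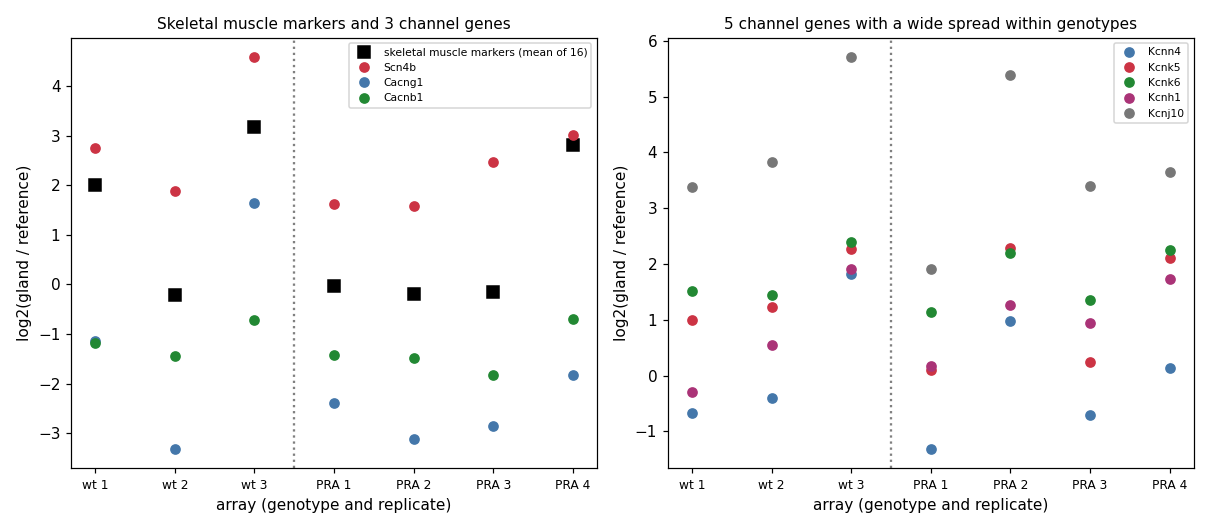
Log2 ratio of gland over reference (vertical axis) on each of the 7 arrays (horizontal axis; dotted line between the genotypes). Left, the mean of 16 skeletal muscle markers with Scn4b, Cacng1 and Cacnb1, all highest on wild-type replicates 1 and 3 and PRA transgenic replicate 4; right, 5 channel genes whose values differ more within genotypes than between them.

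Other channel genes differed widely between mice of the same genotype. Kcnn4, the intermediate-conductance calcium-activated channel of epithelia and lymphocytes, was at -0.68, -0.40 and 1.82 in wild-type and at -1.31, 0.97, -0.71 and 0.14 in PRA transgenic glands. The range of 3.13 compares with a log2 fold change of -0.47, and its other probes gave the same order of the lowest and highest arrays within wild-type. Kcnk5, Kcnk6, Kcnh1 and Kcnj10, chosen after their values were seen, were also highest on wild-type replicate 3 within wild-type. Kcnj10, a rectifier of glia and epithelia, was at 5.71 on that array and 5.39 on PRA transgenic replicate 2, and at 1.90 to 3.83 on the others. The median range over the 7 arrays was 1.28 for the 88 genes.

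Proteins that work with these channels were counted as well, from a list of 35 genes that holds pacemaker channels, sulphonylurea receptors, ankyrins, fibroblast growth factor homologous factors and other partners. Of these 28 were kept, 3 had an unadjusted P under 0.05 (7.95% of all genes), and 2 were called (4.06% of all genes), both higher (1.52%): Stac and Stac2, adaptor proteins of L-type calcium channels. Stac2 was at -0.45, -0.80 and -1.55 in wild-type and at -0.26, 0.22, 0.17 and -0.38 in PRA transgenic glands, without overlap (log2 fold change 0.87, standard error 0.29, adjusted p = 0.463), with a reference above background on all 7 arrays and a Cy5 change of 0.63. For Stac the log2 fold change was 0.94, but Cy5 changed by -0.32 and the reference, above background on no array, by -1.26. Dpp10, a partner of Kv4 channels, was at 0.54 (adjusted p = 0.535), under 1.5-fold.

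The stretch of 250 bases before the transcription start was read for the called genes, because the transgene encodes a transcription factor. The search was for the half-site TGTTCT of progesterone and glucocorticoid receptors on both strands and for the full palindromic site, GNACA and TGTNC with 3 bases between them, whose match can overlap a half-site. Of 32851 RefSeq promoter windows (GRCm38.p6) 16.1% held the half-site and 0.387% the full site, and of 135 windows of channel genes 14.8% held the half-site and 0.741%, that of Kcna5, the full site. Among the called genes with a window, Cacna1d and Kcnc2 held half-sites, and the windows of Kcnc4, Kcne1l, Kcne4, Kcnj8 and Kcnt2 did not. The windows of Kcnj8 and Kcnt2, which had the lowest adjusted p, and those of the genes with a half-site are shown with half-sites in capitals. They lie at chr6:142571615-142571864 (minus strand), chr1:140245468-140245717 (plus), chr10:112270871-112271120 (plus, 1 of 4 starts) and chr14:30491157-30491406 (minus, 1 of the starts of Cacna1d). A match is a description of these letters only.
Kcnj8: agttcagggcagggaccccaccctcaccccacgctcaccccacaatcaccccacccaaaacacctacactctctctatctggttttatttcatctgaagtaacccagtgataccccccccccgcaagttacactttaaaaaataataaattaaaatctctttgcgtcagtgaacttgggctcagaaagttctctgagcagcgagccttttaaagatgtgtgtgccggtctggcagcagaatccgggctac
Kcnt2: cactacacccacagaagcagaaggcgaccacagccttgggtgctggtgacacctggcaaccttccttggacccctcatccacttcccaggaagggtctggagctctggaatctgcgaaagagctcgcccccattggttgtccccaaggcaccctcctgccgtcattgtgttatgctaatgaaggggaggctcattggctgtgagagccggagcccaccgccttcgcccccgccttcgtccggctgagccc
Kcnc2: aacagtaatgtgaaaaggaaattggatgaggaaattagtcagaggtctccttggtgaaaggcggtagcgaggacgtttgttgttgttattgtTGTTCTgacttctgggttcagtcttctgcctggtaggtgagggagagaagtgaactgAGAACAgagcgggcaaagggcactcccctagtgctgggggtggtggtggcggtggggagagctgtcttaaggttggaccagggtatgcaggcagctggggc
Cacna1d: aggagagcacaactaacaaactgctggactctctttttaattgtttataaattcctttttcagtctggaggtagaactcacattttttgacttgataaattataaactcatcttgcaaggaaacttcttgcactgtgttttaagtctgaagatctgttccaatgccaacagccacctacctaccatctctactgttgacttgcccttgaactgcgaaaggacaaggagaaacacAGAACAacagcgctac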

How the data were processed

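The authors deposited the scanner output of each 2-colour array from Agilent Feature Extraction 12.0, whose processed intensity values per spot were background-subtracted and dye-normalized, with a replacement value for dim spots, and a series table of log2 ratios. Probe coordinates are those of mm9. Here spots flagged as outliers were left out, spots of a probe were averaged, and log2(Cy5/Cy3) was fitted with limma 3.58.1 in R 4.3.3 on 3 wild-type and 4 PRA transgenic arrays, over 34288 of 56605 probes, kept where Cy5 was flagged well above background in every mouse of either genotype. P values were adjusted over these probes (Benjamini-Hochberg), and each gene was represented by its brightest kept probe. The looser threshold of P under 0.05 and 1.5-fold is one that the study used beside a stricter one. The number of arrays limits the precision. Named in full were genes past either threshold, the kept channels known from skeletal muscle (1 is not reported here), the largest rise and fall of each role list, and Cacng7; genes outside this rule were chosen after their values were seen. Names matched RefSeq by accession for 233 of 282 probes and by symbol for 49. The fit was tested on simulated data. The members and lists were chosen with earlier results of these data known. Same-numbered arrays of the genotypes did not deviate together (r = 0.0997, -0.297 and 0.036), so numbers were not taken as pairs. Alternatives were another background correction, the series table, Cy5 alone, other filters on dim probes, an intensity trend, quantile normalization, the methods' t-test, the replicate number as a block, the muscle markers as a covariate, the median over a gene's probes, and each array left out.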

Additional observations from a re-analysis of the deposited data

Results flagged for a closer look

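Among the 4 PRA transgenic arrays, 1 array stood far from the other 3 in 5 of the 102 channel genes and marker lists examined, where chance gives about 5.1. The gap over the whole range was 0.947 for the skeletal muscle marker mean (replicate 4 at 2.80, the others -0.19 to -0.03), 0.909 for Kcnv2 (replicate 2 at -0.55, the others -1.34 to -1.27), 0.850 for Scn10a (replicate 4 at 1.21, the others 2.61 to 2.86), 0.845 for Kcnj2 (replicate 4 at 2.77, the others 1.93 to 2.06) and 0.841 for Kcnrg (replicate 4 at 0.90, the others -0.47 to -0.25). In 4 of the 5 the array was PRA transgenic replicate 4.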

How the results depend on the processing

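No channel gene passed an adjusted p under 0.05 in limma or the methods' t-test under any of 19 alternatives, of which 1 (Cy5 above background on all 7 arrays) was chosen after seeing the data. The 8 calls at P under 0.05 and 1.5-fold (1 higher, 7 lower) were 0 after normexp background correction with loess (0 higher, 0 lower), 0 with both channels above background on all 7 arrays (0 and 0), 3 with Cy5 above background on all 7 (1 and 2), 5 in Cy5 alone (1 and 4), 5 with the methods' t-test (1 and 4), 9 with quantile normalization (2 and 7), 11 with each gene's kept probes summarised by their median (2 and 9) and 15 without a filter on dim probes (3 and 12). Leaving out 1 array gave 8 to 17 calls, 2 to 6 higher and 5 to 11 lower, with 17 without PRA transgenic replicate 4 and 12 without wild-type replicate 1. Cacna1d lost its call in 7 of 17 alternatives, among them without wild-type replicates 2 and 3 and PRA transgenic replicates 1 and 3, Kcne1l in 7 of 18, among them without wild-type replicates 2 and 3 and PRA transgenic replicates 2 and 3, and Kcnc4 in 4 of 17, among them without wild-type replicate 3, whereas Kcnj8 and Kcnk3 (16 of 18 kept) and Kcnc2, Kcne4 and Kcnt2 (15 of 17) lost theirs with normexp and loess and in Cy5 alone, among the alternatives that tested them. The filter on both channels left none of the 8 to test, and that on Cy5 left out Cacna1d, Kcnc2, Kcnc4, Kcne4 and Kcnt2. The cause was not tested. With the replicate number as a block, which leaves out PRA transgenic replicate 4 since it has no wild-type partner, 19 genes were called (8 higher, 11 lower). It reversed Kcnj2 to -0.10 and Scn2b to -0.20, which were not called in either fit. Slide as a block was not run, because there was 1 slide.

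In Cy5 alone, where all probes shifted by a median of -0.20, the median log2 fold change was -0.25 for all channel genes, -0.44 for calcium- and sodium-activated, -0.23 for inward rectifier, -0.076 for sodium pore, -0.31 for alpha2delta and -0.24 for gamma genes, and Cacna1e (-0.25), Cacna2d2 (-0.37), Cacng6 (-0.45), Kcna7 (-0.012), Kcnd3 (-0.045), Kcnj2 (-0.23), Scn2b (-0.38) and Scn4a (-0.24) turned negative. Without a filter the median was -0.54 for inward rectifier, 0.21 for sodium pore and -0.14 for alpha2delta genes, and -0.0090 for calcium- and sodium-activated genes with Cy5 above background on all 7 arrays. The sodium pore median of 0.44 was 0.13 with normexp and loess, 0.17 with both channels above background (1 gene), 0.22 with the muscle covariate and 0.17 with the median probe. With each array left out the medians ran from -0.094 to 0.028 for all channel genes, -0.33 to -0.039 for calcium- and sodium-activated, -0.20 to 0.21 for tandem-pore, 0.13 to 0.48 for sodium pore and -0.22 to 0.021 for calcium alpha1 genes. Genes near 0 that turned sign were Cacna2d1 (0.047), Cacnb1 (0.023) and Cacnb3 (0.10) with the muscle covariate, Cacnb3 (0.073) with quantile normalization, Kcnj2 (-0.032) with normexp and loess, and, with 1 array left out, Cacna2d1 (-0.083 to 0.097), Cacnb3 (-0.25 to 0.13), Kcnj2 (-0.10 to 0.27) and Scn2b (-0.27 to 0.60). Signal over background limits the 27 channel genes whose reference was above it on no array.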
